A study of Mus musculus with 70 samples.

Results

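The 15 dorsal hippocampus libraries with the highest FPKM of Mbp (myelin basic protein) and the 15 with the lowest were chosen by that value from 69 libraries, whatever their group, and are called Mbp-high and Mbp-low here. The remaining 39 are called the middle libraries, and sedentary replicate 6 was left out, so that 30 of the 70 libraries make up the contrast. FPKM are sequenced fragments per transcript length and per library total, and differences are given on the log2(FPKM + 0.1) scale. Because the libraries were ranked by Mbp, every difference between Mbp-high and Mbp-low is a description with no test. Tests were made only in the middle libraries, which the ranking left out of the contrast, and between the study groups.

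Each library came from the bilateral dorsal hippocampus of an adult male C57BL/6 J mouse, and each of the 7 groups had 10 libraries, 5 from each of 2 harvest cohorts (tissue collection days). Sedentary mice (0-0-0) had no running wheel. The exercise groups carry 3 numbers, the days with a wheel, the days without it and the days with it again. Their names are 0-0-2 and 14-0-0, then 14-14-0, and finally 14-7-0 with 14-7-2. These 6 groups had 3 min of subthreshold object location memory (OLM) training 1 h before tissue was taken, and home cage mice had neither wheel nor training. All groups were of one genotype, and the tissue was dissected by hand from each mouse, so that neighbouring tissue can enter a library in differing amounts.

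Oligodendrocytes wrap axons in myelin, a compacted membrane that is rich in cholesterol and in galactosphingolipids. Mbp holds the cytoplasmic faces of that membrane together and its mRNA is carried into the myelin sheaths. In the hippocampus, myelin is densest in the fibre tracts that border it, the alveus and the fimbria, and sparser in the cell layers. The mRNA of myelin genes in a dissected hippocampus therefore reads both the oligodendrocytes and the amount of white matter taken with the tissue. In bulk tissue, fewer cells of a type and less RNA per cell cannot be told apart.

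Mbp ranged from 523 to 1243 FPKM in the Mbp-low libraries (median 1081), from 1257 to 1929 in the middle libraries (median 1579) and from 1952 to 3009 in the Mbp-high libraries (median 2138). Mbp thus made up 0.255% of all FPKM in the median Mbp-low library and 0.509% in the median Mbp-high library. At the lower border, sedentary replicate 3 (1243 FPKM) was the last library inside and 14-7-2 replicate 7 (1257 FPKM) the first outside. At the upper border these were 14-7-0 replicate 8 (1952 FPKM) and 14-7-2 replicate 3 (1929 FPKM). The borders cut through a continuous range, and the gaps there were small against the ranges on either side. The left-out sedentary replicate 6 stood at 4386 FPKM.

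**Figure D1:**
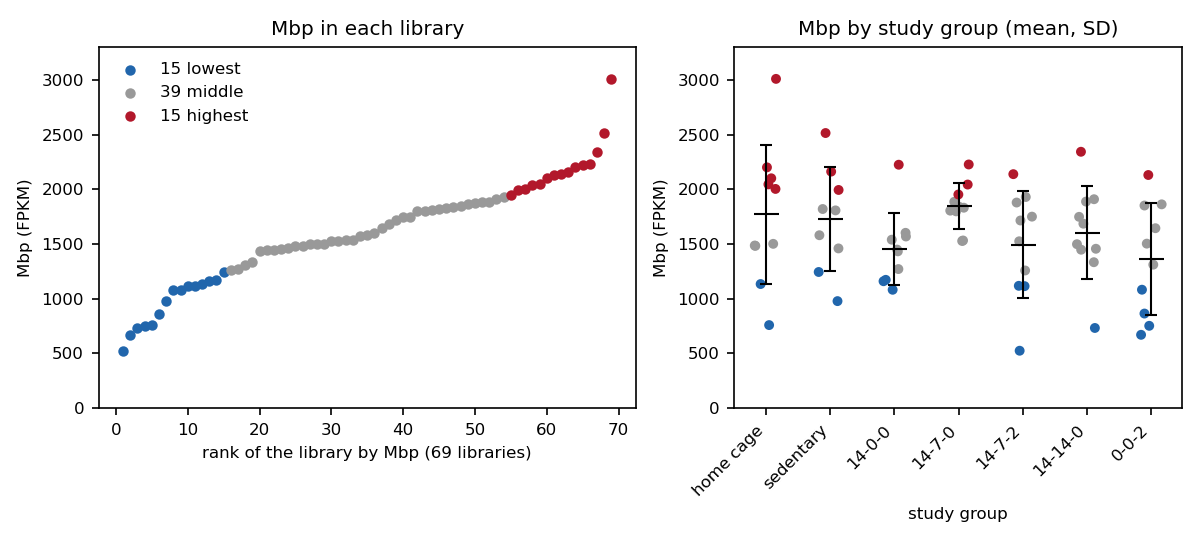
Left, Mbp (FPKM) of each of the 69 libraries against its rank, coloured by set (15 lowest, 39 middle, 15 highest). Right, the same values by study group, with bars for the mean and SD. The values form a continuous series from 523 to 3009 FPKM, and both extremes hold libraries of several groups.

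Both sets drew on most of the design. The Mbp-low libraries were 4 of 0-0-2, 3 of 14-0-0, 3 of 14-7-2, 2 of home cage, 2 of sedentary, 1 of 14-14-0 and 0 of 14-7-0. The Mbp-high libraries were 5 of home cage, 3 of sedentary, 3 of 14-7-0 and 1 each of 14-0-0, 14-7-2, 14-14-0 and 0-0-2. Harvest cohort 1 gave 8 of the Mbp-low and 9 of the Mbp-high libraries. The relative depth of a library, estimated from genes near 0 with sedentary replicate 0 set to 1, had a median of 0.798 in Mbp-low and 0.745 in Mbp-high libraries. One Mbp-high library, 14-7-0 replicate 4, had a relative depth of 0.0365 and listed 10279 genes at 0 FPKM, and without it 630 genes were at least 0.5 higher and 205 lower in the contrast given below, in place of 660 and 274.

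The sets were not alike in everything but myelin. Ttr (transthyretin), the dominant transcript of choroid plexus epithelium, reached at least 1000 FPKM in 6 Mbp-low, 9 middle and 2 Mbp-high libraries. A GC score was computed for each library as the correlation, across 12488 genes outside the mature oligodendrocyte list, of the gene's deviation from its median with the GC content of its transcript. It ranged from −0.470 to 0.280 in Mbp-low libraries (median −0.185) and from −0.154 to 0.525 in Mbp-high libraries (median 0.0937). In Mbp-low libraries GC-rich transcripts thus tended to lie below their median, and in Mbp-high libraries above it. In the 39 middle libraries the GC score showed no such relation with log2 Mbp (Pearson r = −0.0176, permutation p = 0.915; Spearman rho = 0.0496, p = 0.762; r = −0.00727 without the 2 libraries farthest from the median Mbp). The choroid plexus score (r = −0.134, permutation p = 0.415) and the relative depth (r = 0.0366, permutation p = 0.828) did not pass there either, with rho of −0.0573 and 0.136 (permutation p = 0.729 and 0.407) and, without the 2 farthest libraries, r of −0.0473 and 0.0270. Adjusted over these 3 relations, the p for r was 0.915 in each, and that for rho was 0.762.

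Of 12993 genes that averaged 1 FPKM or more, Mbp left out, 660 (5.08%) were at least 0.5 higher in Mbp-high than in Mbp-low libraries and 274 (2.11%) were at least 0.5 lower. For 29 genes (0.223%) all Mbp-high libraries lay above all Mbp-low libraries, and for 0 genes all lay below. Without libraries at or above 1000 FPKM of Ttr the counts were 288 higher and 170 lower, and with the GC score as a term they were 245 and 126. Genes of mature oligodendrocytes were read in the same sets. Mbp is itself a gene of these cells, so the difference between the sets does not test a white-matter label. Of the 32 genes of a mature oligodendrocyte list, 29 were at least 0.5 higher, with a median difference of 0.68 against −0.0099 for all genes tested. Their summed FPKM were 1246 to 2439 (median 1747) in Mbp-low and 2451 to 4004 (median 2843) in Mbp-high libraries, so that the 2 ranges did not overlap.

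The test on other libraries asked which genes follow Mbp when the extremes are absent. In the 39 middle libraries, log2(FPKM + 0.1) of each gene was regressed on that of Mbp with limma, where a slope of 1 means that the gene doubles when Mbp doubles. At a Benjamini-Hochberg adjusted p under 0.05, 129 genes rose with Mbp (0.993% of 12993) and 1 fell (0.0077%), beside 802 (6.17%) and 412 (3.17%) at an unadjusted p under 0.05. The mature oligodendrocyte list held 26 of its 32 members among the rising genes, with a median slope of 0.94 against −0.026 for all genes. With quantile normalization 4 of the 32 rose (47 genes in all) and the list's median slope was 0.33, and with study group as a covariate 12 rose (35 in all) and it was 0.80. Without 0-0-2 replicate 6, 81 genes rose, and without 14-7-2 replicate 7, 85. Of the 129 rising genes, 33 were in lists of oligodendrocytes or myelin lipids, and 0 were in any other list. Within cohort 1 alone (18 libraries) 24 genes rose, 9 of them in the mature list, and within cohort 2 alone (21 libraries) 10 rose, 2 of them in that list, with median slopes of the list of 1.04 and 0.94. By limma's interaction test the slopes differed between cohorts for 0 of 12993 genes at an adjusted p under 0.05. At an unadjusted p under 0.05 they differed for 521 of 12993 genes, with 1 of the 32 mature list genes among them. With 18 and 21 libraries in the cohorts, 0 calls do not show that the slopes were alike.

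**Figure D2:**
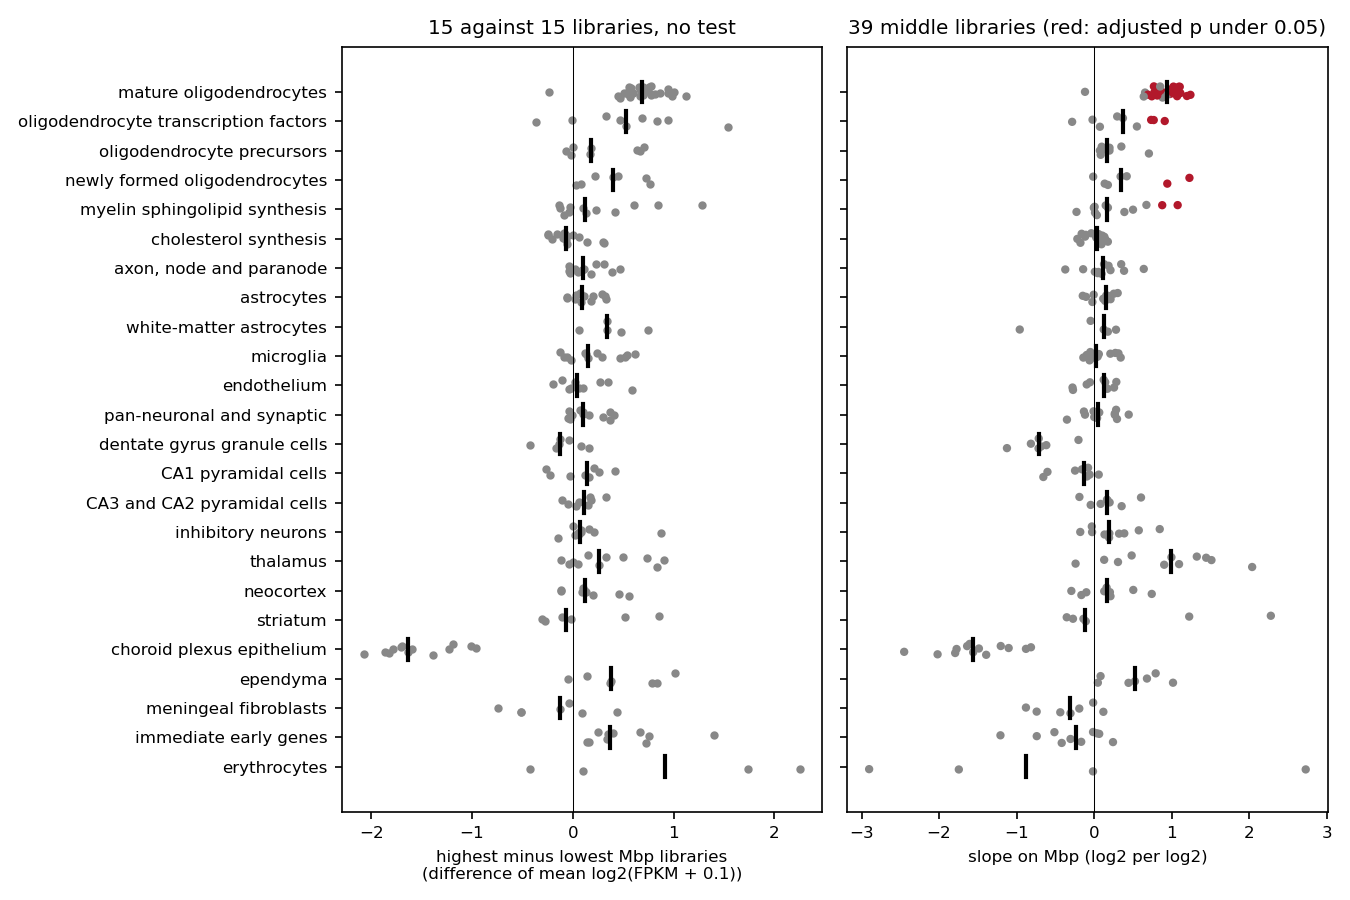
Genes of 24 lists, 1 point per gene and a bar at the list median. Left, difference of mean log2(FPKM + 0.1) between Mbp-high and Mbp-low libraries; right, slope on log2 Mbp in the 39 middle libraries, red where limma's adjusted p was under 0.05. Mature oligodendrocyte genes lie at a median of 0.68 on the left and 0.94 on the right, and choroid plexus genes at −1.63 and −1.56 with no gene called.

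Structural proteins of compact myelin were described first. Mobp, an abundant myelin protein, ranged from 59.3 to 153.5 FPKM in Mbp-low libraries (median 95.4) and from 124 to 237 FPKM in Mbp-high libraries (median 159). The ranges overlapped, and the difference was 0.76. In the middle libraries Mobp rose with a slope of 1.09 ± 0.207 (SE, n = 39, limma's adjusted p = 0.0019). Mal, a lipid-raft protein of myelin, and Opalin, a glycoprotein of the central sheath, rose with slopes of 1.08 and 1.11.

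Cldn11, the claudin of the tight junctions that seal the myelin lamellae, separated the sets. It lay between 49.6 and 84.1 FPKM in Mbp-low libraries (median 64.9) and between 99.5 and 170 FPKM in Mbp-high libraries (median 120.5), a difference of 0.94. In the middle libraries it rose with a slope of 0.93 ± 0.127 (SE, n = 39, limma's adjusted p = 2.03e-05). Pllp (plasmolipin) likewise did not overlap, at 17.0 to 35.3 FPKM in Mbp-low and 36.4 to 63.2 FPKM in Mbp-high libraries.

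Among genes for proteins of the myelin surface, Mag (myelin-associated glycoprotein), the adhesion molecule of the innermost layer facing the axon, ranged from 33.5 to 65.4 FPKM (median 49.7) in Mbp-low and from 79.8 to 127 FPKM (median 92.0) in Mbp-high libraries. All Mbp-high libraries were above all Mbp-low libraries, and the difference of 0.99 is a 1.98-fold change. Its slope in the middle libraries was 1.07 ± 0.133 (SE, n = 39, limma's adjusted p = 4.45e-06). Within the cohorts its slopes were 1.52 and 1.02 (limma's adjusted p = 0.0040 and 0.0042). Mog (myelin oligodendrocyte glycoprotein) on the outermost layer rose with a slope of 1.11 ± 0.252 (limma's adjusted p = 0.015). Cntn2 (contactin 2), of the juxtaparanode beside the node of Ranvier, rose with a slope of 0.69.

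Gap junctions of oligodendrocytes are built from connexins. Gjb1 (connexin 32) was at 4.38 to 10.7 FPKM in Mbp-low and 11.01 to 20.7 FPKM in Mbp-high libraries, with no overlap, and rose with a slope of 1.00 ± 0.202 (limma's adjusted p = 0.0036). Adamts4, a metalloprotease found in mature oligodendrocytes, had the largest difference of the list at 1.12. It lay between 3.48 and 6.04 FPKM in Mbp-low and between 7.37 and 15.4 FPKM in Mbp-high libraries, and its slope was 0.81 ± 0.161 (limma's adjusted p = 0.0028).

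The slopes of the 26 rising members ran from 0.69 (Cntn2) to 1.24 (Tmem125). Cnp, a phosphodiesterase that keeps cytoplasmic channels in myelin open, went from a median of 118 to 200 FPKM with a slope of 0.93 ± 0.155 (limma's adjusted p = 0.00037). Ermn, a cytoskeletal protein of the sheath, and Ndrg1, which is needed to maintain myelin in peripheral nerve, had slopes of 0.95 and 1.2.

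The 6 members of the mature list that did not pass were Aspa, Ppp1r14a, Hapln2, Nipal4, Gamt and Fam107b. Aspa (aspartoacylase, which frees acetate from N-acetylaspartate) had a slope of 0.88 at limma's adjusted p = 0.061, and Nipal4 0.85 at 0.083. Hapln2, a link protein of the nodal matrix, had a slope of 0.66, and Ppp1r14a, an inhibitor of myosin phosphatase, one of 0.95 with an SE of 0.44. Fam107b stood apart from the list, with a slope of −0.12 and a difference of −0.24. It was the member with a negative value in both measures.

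**Figure D3:**
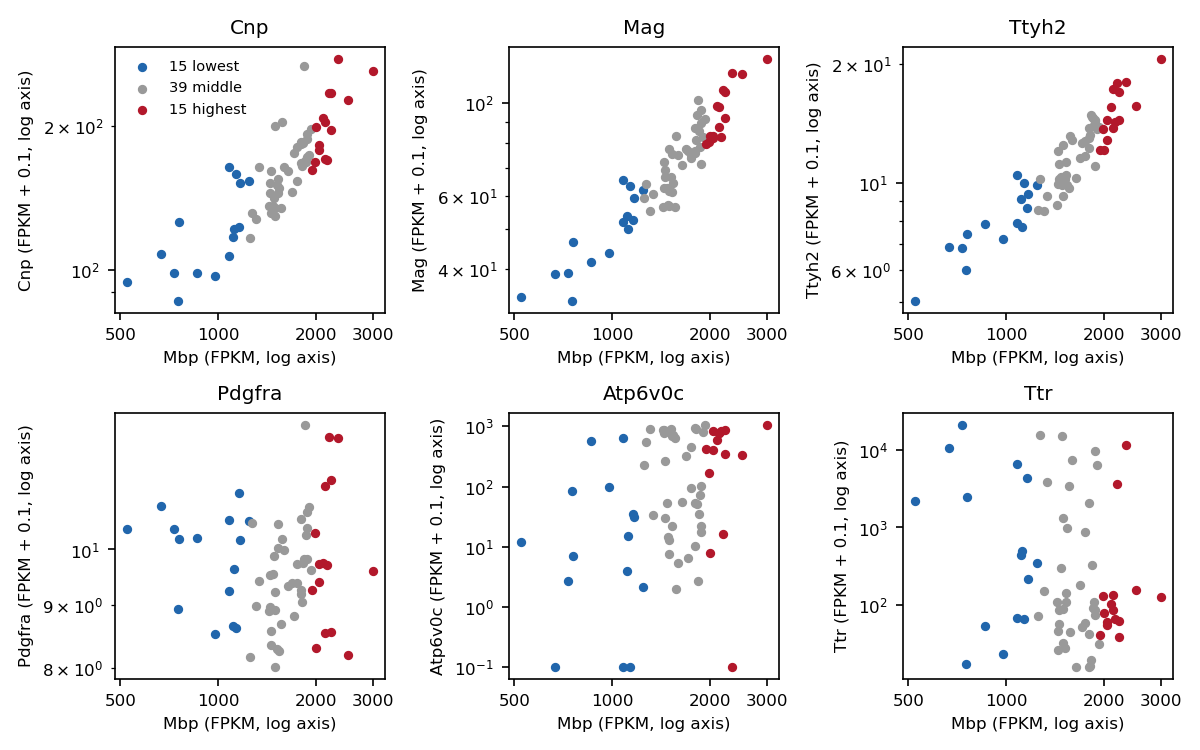
FPKM + 0.1 of 6 genes against Mbp FPKM in 69 libraries, both axes logarithmic, coloured by set. Mag and Ttyh2 form a narrow band over the whole range, Cnp a wider one; Pdgfra spans a narrow range in all sets, and Atp6v0c and Ttr scatter over several orders of magnitude.

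To show the DNA ahead of genes that differed most between the sets, the 250 bases before the start were taken from RefSeq (build GRCm38.p6) for the 4 mature list genes of largest difference with an entry in its promoter table, and were searched on both strands for ACAAAG and ACAATG, letters of the kind that Sox10 and related factors bind, CTGGCAC and CTGGTAC, of the kind Myrf binds, and CAGCTG, an E-box. Capitals mark the matches, and positions count back from the start. The sequences are Mag (chr7:30914864-30915113, minus strand), Cldn11 (chr3:31149670-31149919, plus strand), Gjb1 (chrX:101376126-101376375, plus strand) and Hapln2 (chr3:88027512-88027761, minus strand), each written 5′ to 3′ in the sense of the gene.
Mag: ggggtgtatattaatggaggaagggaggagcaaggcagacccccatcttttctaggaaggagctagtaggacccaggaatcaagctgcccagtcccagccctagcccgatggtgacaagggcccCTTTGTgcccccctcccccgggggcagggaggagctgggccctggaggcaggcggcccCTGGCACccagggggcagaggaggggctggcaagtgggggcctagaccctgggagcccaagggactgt
Cldn11: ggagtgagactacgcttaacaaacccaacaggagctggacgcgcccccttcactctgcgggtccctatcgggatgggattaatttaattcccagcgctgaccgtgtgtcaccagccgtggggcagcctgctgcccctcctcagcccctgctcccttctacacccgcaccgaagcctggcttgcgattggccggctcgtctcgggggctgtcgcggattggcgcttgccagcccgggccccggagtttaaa
Gjb1: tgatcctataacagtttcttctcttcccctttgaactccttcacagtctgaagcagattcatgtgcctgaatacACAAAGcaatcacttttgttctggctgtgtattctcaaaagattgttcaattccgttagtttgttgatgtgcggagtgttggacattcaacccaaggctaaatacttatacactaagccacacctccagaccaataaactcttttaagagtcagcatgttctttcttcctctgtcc
Hapln2: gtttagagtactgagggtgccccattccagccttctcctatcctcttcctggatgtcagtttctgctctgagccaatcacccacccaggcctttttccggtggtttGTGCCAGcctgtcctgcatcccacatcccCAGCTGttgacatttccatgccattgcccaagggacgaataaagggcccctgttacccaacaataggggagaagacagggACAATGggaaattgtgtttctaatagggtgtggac
Mag held ACAAAG on the opposite strand at −126 and CTGGCAC at −68. Gjb1 held ACAAAG at −176, Hapln2 held CTGGCAC on the opposite strand at −144, CAGCTG at −115 and ACAATG at −35, and Cldn11 held none of these letters in its window. Of the 32 mature list genes 25 matched a promoter, and CTGGCAC was in 6 of the 25 (24.0%), against 4.19% of all 32851 promoters and 4.11% of the 9814 of genes tested. Among the 89 promoters of rising genes it was in 9 (10.1%). ACAAAG was in 20% of the mature list, 15.7% of rising genes and 11.7% of genes tested, ACAATG in 12%, 11.2% and 5.93%, CTGGTAC in 4.0%, 2.25% and 1.41%, and CAGCTG in 12%, 16.9% and 11.7%. Over all promoters in the table the shares of these 4 were 16.5%, 10.7%, 1.83% and 13%. A match is a description of letters and not a binding site.

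Transcription factors of the lineage were read separately. Myrf, which switches on myelin genes in the differentiating cell, rose with a slope of 0.91 ± 0.182 (limma's adjusted p = 0.0031), and its FPKM did not overlap, at 6.22 to 10.9 in Mbp-low and 11.5 to 21.1 in Mbp-high libraries. Sox10, needed through the whole lineage, lay at 6.56 to 12.6 and 13.2 to 24.8 FPKM and rose with a slope of 0.74 ± 0.176 (limma's adjusted p = 0.023). Olig2 rose with a slope of 0.77. Sox8 had a slope of 0.55 at an adjusted p of 0.053 and Olig1 one of 0.37. Nkx6-2 had the largest difference of the 9 factors, 1.54 (0.73 with the GC score as a term), but a slope of 0.075 ± 0.486. Zfp488 had a difference of −0.36 and a slope of −0.28, neither called.

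Genes of earlier stages of the lineage were read next. Among 7 genes of newly formed oligodendrocytes, Enpp6 (a choline phosphodiesterase; slope 1.23 ± 0.229, limma's adjusted p = 0.0015) and Bcas1 (slope 0.94 ± 0.180, limma's adjusted p = 0.0019) rose, and Gpr17, a receptor of the premyelinating cell, had a slope of 0.42 that did not pass. Of 8 precursor genes, 0 rose at an adjusted p under 0.05 (0.993% of all genes) and 2 at an unadjusted p under 0.05 (6.17%). Their median slope was 0.17. Pdgfra, the receptor that keeps precursors dividing, was at 8.43 to 11.02 FPKM in Mbp-low and 8.09 to 12.3 FPKM in Mbp-high libraries, a difference of −0.0013. In the middle libraries its slope was 0.35 ± 0.112 (limma, unadjusted p = 0.0032, adjusted p = 0.16). Lhfpl3 had a slope of 0.71 ± 0.207 (limma, unadjusted p = 0.0015, adjusted p = 0.10). The precursor genes Cspg4, Matn4 and C1ql1 were 0.64, 0.70 and 0.67 higher, and 0.31, 0.23 and 0.25 higher with the GC score as a term.

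Of 12 genes of myelin sphingolipid synthesis 2 rose (0.993% of all genes), with a median slope of 0.16. Fa2h, which hydroxylates the fatty acids of galactosylceramide, was at 10.5 to 21.5 FPKM in Mbp-low and 22.3 to 42.2 FPKM in Mbp-high libraries, with no overlap, and rose with a slope of 1.08 ± 0.194 (limma's adjusted p = 0.0011). Ugt8a, which adds galactose to ceramide, rose with a slope of 0.88 (limma's adjusted p = 0.019). Gal3st1, which sulfates galactosylceramide to sulfatide, had the largest difference of the 12 sphingolipid genes, 1.29, and a slope of 0.67 that did not pass. The general ceramide enzymes Sptlc1 and Sptlc2 had slopes of 0.0070 and 0.15. Of 16 cholesterol synthesis genes, 0 were at least 0.5 higher (5.08% of all genes). Among the 16, 0 rose after adjustment (0.993%) and 0 at an unadjusted p under 0.05 (6.17%), and their median slope was 0.042. For a list of 16 genes, counts of 0 lie near these shares.

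The 10 rising genes of smallest p were not all myelin proteins. Ttyh2, which codes for a tweety-family membrane protein, had the smallest p of all, with 4.92 to 10.3 FPKM (median 7.75) in Mbp-low and 12 to 20.4 FPKM (median 14.3) in Mbp-high libraries and a slope of 1.12 ± 0.124 (SE, n = 39, limma's adjusted p = 4.5e-07). Unc5b, a netrin receptor, Galnt6, which starts O-linked glycosylation, Prr18, Pacs2, a sorting protein, and Rhog, a small GTPase, had slopes of 1.00, 1.21, 1.14, 0.71 and 0.82, and each of the 5 was without overlap between the sets. Gpr37, a receptor of oligodendrocytes, and Plekhb1 had slopes of 0.78 and 0.85, and Mag and Cldn11 completed the 10. Outside the lists 96 genes rose, and the following were chosen after their values were seen. Trf (transferrin, the iron carrier that oligodendrocytes express), S1pr5, a sphingosine-1-phosphate receptor of oligodendrocytes, Gsn (gelsolin) and Sirt2, a tubulin deacetylase of myelin, had slopes of 0.95, 0.96, 0.64 and 0.52. Il33, an alarmin, Agt (angiotensinogen), Kcnj10, a potassium channel of glia, and Hepacam, a glial adhesion molecule, had slopes of 0.96, 1.07, 0.50 and 0.40. Over all 129 rising genes the slopes ran from 0.33 to 1.51 (median 0.81). Of these 129, 128 were higher in Mbp-high than in Mbp-low libraries, against 6213 of all 12993 genes. Among the 129, 73 were higher by at least 0.5, against 5.08% of all genes, and 20 did not overlap, against 0.223%. With the GC score as a term in the fit 174 genes rose (1.34%), all 129 among them.

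Dusp18, a dual-specificity phosphatase, was the gene that fell. It was at 10.03 to 14.2 FPKM in Mbp-low and 6.60 to 12.3 FPKM in Mbp-high libraries, and its slope was −0.51 ± 0.122 (limma's adjusted p = 0.023). Its difference between the sets was −0.178, and −0.0135 with the GC score as a term. Within cohorts 1 and 2 its slopes were −0.715 and −0.466 (limma's adjusted p = 0.12 and 0.83). Dusp18 lost the call in 5 of 14 settings. Il1r1, an interleukin-1 receptor, was next by p, with a slope of −0.96 ± 0.260 and an adjusted p of 0.061.

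Markers of hippocampal cell layers and of neighbouring tissue were read for what else moved with Mbp. All 7 dentate gyrus granule cell genes had negative slopes in the middle libraries, with a median of −0.71. Of these, 4 passed at an unadjusted p under 0.05 (background 3.17%) and 0 after adjustment. Prox1, the identity factor of granule cells, had a slope of −0.82 ± 0.294 (limma's adjusted p = 0.27), while its medians in Mbp-low and Mbp-high libraries were 23.5 and 24.3 FPKM. The list's summed FPKM were 94.2 to 235 in Mbp-low and 69.3 to 215 in Mbp-high libraries, with overlap. The median difference of the list was −0.13, and 2 of 7 genes were higher in Mbp-high libraries. With the GC score as a term that median was 0.10. Of 11 thalamus genes 10 had positive slopes (median 1.00), 3 of them at an unadjusted p under 0.05 (background 6.17%) and 0 after adjustment. Slc17a6, the vesicular glutamate transporter of thalamic neurons, went from a median of 2.73 to 5.57 FPKM, with a slope of 2.04 ± 0.823 (limma's adjusted p = 0.37). Of 8 CA1 pyramidal genes 1 had a positive slope, with a median of −0.12 and 0 passing at an unadjusted p under 0.05. Of all 12993 genes 5842 had positive slopes. Median slopes were 0.17 for CA3 and CA2, 0.20 for inhibitory neuron, 0.16 for neocortex and −0.12 for striatum genes. They were 0.53 for ependyma and −0.30 for meningeal fibroblast genes. In each of these lists, CA1 included, 0 genes were called after adjustment (0.993% of all genes rose). The part of tissue sampling in the slopes of the myelin genes was not tested.

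The fixed lists of other glia had small median slopes, while Kcnj10 and Hepacam, glial genes outside these lists, rose as given above. Astrocyte genes had a median slope of 0.15 and microglia genes 0.030, and 0 of 12 and 0 of 13 rose after adjustment (0.993% of all genes). At an unadjusted p under 0.05, 0 of the 12 astrocyte and 3 of the 13 microglia genes rose (6.17% of all genes). Gfap, the filament of fibrous astrocytes, was at 104 to 173 FPKM in Mbp-low and 142 to 197 FPKM in Mbp-high libraries, a difference of 0.34, and had a slope of −0.045 in the middle libraries. The white-matter astrocyte list had a median difference of 0.34 and a median slope of 0.12. Of the 13 microglia genes 3 were at least 0.5 higher (5.08% of all genes), namely Tmem119, C1qa and C1qc, by 0.52, 0.62 and 0.54. With the GC score as a term these were 0.19, 0.24 and 0.044. Endothelial genes had a median difference of 0.045, and genes of axons, nodes and paranodes one of 0.10, where Nefh, the heavy neurofilament, had the largest slope at 0.64 (limma's adjusted p = 0.094).

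The genes with the largest difference between the extremes were compared with those that followed Mbp in the middle. Atp6v0c, a subunit of the vacuolar proton pump, led with a difference of 4.43. Its median was 11.8 FPKM in Mbp-low and 424 FPKM in Mbp-high libraries, yet the values ran from 0.000957 to 631 FPKM in the former and from 0.00108 to 1041 FPKM in the latter, and its slope was −2.84 ± 2.47. With the GC score as a term the difference was 2.35, and that of Akr1b3, an aldose reductase, went from 2.66 to 1.87 and that of Cxcl5, a chemokine, from 1.64 to 2.13. Pcsk1n (proSAAS) had medians of 2.47 and 17.9 FPKM, a difference of 2.06 that was 0.30 with the GC score as a term, and a slope of −1.42. The ribosomal protein gene Rpl36 had medians of 93.8 and 319 FPKM and a slope of −0.74. The list also held the globin genes Hbb-b1 and Hba-a1 (2.26 and 1.74 higher, slopes −2.90 and −1.75), and Dpm3, Prr7, Gpr27 and C1qtnf4. Of the 20 genes of largest difference 0 rose in the middle libraries, and of the 100 largest 9 rose (0.993% of all genes did), or 35 of 100 when the difference was computed with the GC score as a term.

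GC content of the transcript was set against both measures. Across 12520 genes, the difference between Mbp-high and Mbp-low libraries correlated with GC content at r = 0.464, whereas the slope in the middle libraries did at r = −0.0207. Genes are not independent replicates, and no p is given. The median GC content was 58.4% among genes at least 0.5 higher, 46.9% among genes at least 0.5 lower, 50.9% among the 129 rising genes and 49.7% among all. Of the 1252 genes of highest GC content, 341 were at least 0.5 higher (5.08% of all genes) and 7 rose in the middle libraries (0.993%). Mature oligodendrocyte genes kept a median difference of 0.83 with the GC score as a term. Immediate early genes, which neurons induce within minutes of activity, were at a median of 0.37 higher in Mbp-high libraries and of 0.018 with that term, and their median slope was −0.24. Junb had the largest value of these, 1.40, and 0.047 with the term.

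**Figure D4:**
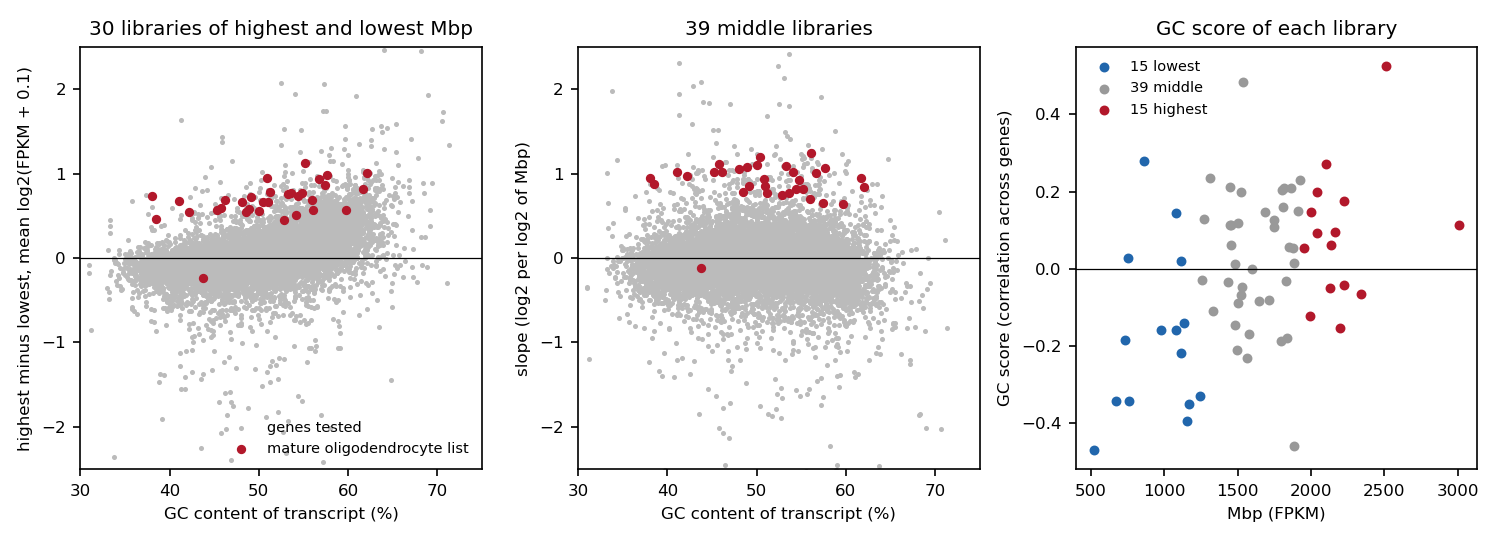
GC content of each transcript against the difference between Mbp-high and Mbp-low libraries (left) and against the slope on Mbp in the 39 middle libraries (middle); red points are the mature oligodendrocyte list, and genes beyond ±2.5 are outside the frame. Right, GC score of each library against its Mbp. The cloud tilts on the left (r = 0.464) and not in the middle panel (r = −0.0207), while the red points lie above the cloud in both.

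Choroid plexus genes were lower in Mbp-high libraries, all 13 of 13 by at least 0.5 (2.11% of all genes), with a median difference of −1.63. Ttr ranged from 16.9 to 21244 FPKM in Mbp-low libraries (median 434) and from 38.5 to 11592 FPKM in Mbp-high libraries (median 85.6). The Mbp-high range lay within the Mbp-low range. The median difference was −0.55 within cohort 1 and −3.16 within cohort 2, −0.33 without the libraries at or above 1000 FPKM of Ttr, and −0.0085 with the GC score as a term. It was −1.53 without 14-7-0 replicate 4, and leaving out each of the 30 libraries it ran from −2.03 without 14-14-0 replicate 3 to −1.31 without 14-14-0 replicate 1. In the middle libraries the median slope was −1.56 and 0 of the 13 passed, also at an unadjusted p under 0.05 (3.17% of all genes fell there). The most negative differences of all belonged to microRNA and small nucleolar RNA genes, led by Mir1966 (−4.76), Mirlet7d (−4.27) and Snora3 (−3.92), all listed at 0 FPKM in at least 1 library of each set. Of 96 such genes 48 were at least 0.5 lower (2.11% of all genes) and 20 at least 0.5 higher (5.08%), and 0 passed in the middle libraries. Without 14-7-0 replicate 4 the counts were 47 and 23, and the differences of the 3 named genes −4.66, −4.21 and −3.83.

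Mbp was also compared between the study groups, which the ranking ignored, with the same Mbp values and without sedentary replicate 6. Mbp was 1728 ± 472 FPKM in sedentary mice (SD, n = 9) and 1771 ± 635 FPKM in home cage mice (n = 10). It was 1366 ± 512 FPKM in 0-0-2 and 1449 ± 329 FPKM in 14-0-0 (n = 10 each). In 14-7-0 it was 1843 ± 211 FPKM, the smallest SD of the groups, against 1494 ± 489 FPKM in 14-7-2 and 1603 ± 427 FPKM in 14-14-0 (n = 10 each). The largest difference from sedentary was −0.39 in 0-0-2 (two-sided exact permutation test, p = 0.12, adjusted over 6 comparisons 0.538). Home cage mice differed by −0.0040 (exact p = 0.986), 14-0-0 by −0.23 (exact p = 0.179) and 14-7-2 by −0.25 (exact p = 0.325). The values were 0.14 for 14-7-0 (exact p = 0.367) and −0.11 for 14-14-0 (exact p = 0.591), and the adjusted p ran from 0.538 to 0.986. The difference of 0-0-2 was −0.12 within cohort 1 and −0.67 within cohort 2 (exact p = 0.762 and 0.0794). No comparison passed after adjustment. With sedentary replicate 6 kept, the difference was −0.53 for 0-0-2 (exact p = 0.0601, adjusted 0.27), −0.37 for 14-0-0 (exact p = 0.0899), −0.25 for 14-14-0 (exact p = 0.309), −0.39 for 14-7-2 (exact p = 0.165), −0.14 for home cage (exact p = 0.589) and −0.0032 for 14-7-0 (exact p = 0.987). Between the cohorts Mbp differed by −0.12 (cohort 2 minus cohort 1, permutation p = 0.27).

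The mature oligodendrocyte genes were read in the same comparisons, which share the sedentary libraries. At an unadjusted p under 0.05 by limma, the criterion of the study's methods, 9 of the 32 were lower in 0-0-2 (background 1.28% lower), 3 in 14-7-2 (1.83%) and 2 in 14-0-0 (3.36%), and 2 were higher in 14-7-0 (1.63%), 1 in 14-0-0 (6.97%) and 1 in 14-14-0 (4.53%). The list's median difference was lowest in 0-0-2, at −0.31, and highest in 14-7-0, at 0.11. It was −0.18 in 14-0-0 and −0.13 in 14-7-2, while home cage (0.068) and 14-14-0 (0.0044) lay between. In 0-0-2, 23 of the 32 were lower within cohort 2 (4 sedentary libraries) and 0 within cohort 1, with medians of −0.51 and −0.13. Of all genes, 2.26% and 0.608% were lower there. With sedentary replicate 6 kept, 20 were lower in 0-0-2 (1.22% of all genes), 7 in 14-0-0 (3.04%) and 5 in 14-7-2 (2.32%). In 14-7-0 then 0 were higher (1.6%). With the replicate number as a block these 4 counts were 2 (1.59%), 5 (7.03%), 1 (2.42%) and 7 (2.9%). In 14-0-0 limma called 4 genes of the whole table at an adjusted p under 0.05, and in the other comparisons 0, where 161 to 589 genes were higher and 166 to 317 lower at an unadjusted p under 0.05.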

How the data were processed

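The authors sequenced poly-A RNA of 70 mouse dorsal hippocampus libraries with single reads, aligned them with ELAND v2e and Bowtie, and deposited FPKM per gene symbol made by the Tuxedo protocol (Cuffnorm and build mm10 per the labels). The FPKM table holds no counts, and the read totals in the study's supplement carry barcodes that were not matched to libraries here, so the depth of each library is unknown, no counting interval is given, and a relative depth was estimated from the steps of genes with a mean under 0.1 FPKM. Of 24346 genes, 12994 had a mean of at least 1 FPKM over 70 libraries, and 12993 were tested without Mbp, as log2(FPKM + 0.1), which understates changes of low genes. Slopes on Mbp and group comparisons were fitted with limma 3.58.1 (R 4.3.3, trend in the prior variance, two-sided), adjusted by Benjamini-Hochberg over all genes. On simulated data of 12993 genes for the slope in 39 libraries, slopes of 1 were recovered for 40 of 50 genes and slopes of −1 for 36 of 50. Slopes of 0.5 and −0.5 were recovered for 23 and 18 of 50, with 2 false calls. The simulated noise was drawn independently for each gene, so variation shared between genes was not covered.

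Mbp was compared between groups by exact permutation tests and between cohorts by 100000 permutations within groups, in Python 3.11.15 with scipy 1.17.1; figures used matplotlib 3.10.9. Replicates are separate mice. GC content came from the longest GENCODE transcript of a symbol and covers 96.4% of genes tested. Promoter sequences are from RefSeq, GRCm38.p6. The libraries, gene lists and rule for named genes (Mbp, the 20 highest and 10 lowest differences, 10 smallest p each way, list members) were chosen with earlier results of these data known; beyond the rule, Nkx6-2, Tmem119 and other list members were picked for their values. The GC score, the alternatives without Ttr-rich libraries and without small RNA genes, and leaving out each library were added after seeing the data. Values of some list members are not reported here by name, and counts over lists include them.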

Additional observations from a re-analysis of the deposited data

Results flagged for a closer look

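Mbp of 14-7-2 replicate 9 was 9.03 on the log2 scale, the lowest of all libraries and apart from the rest of its group. Mbp of 14-14-0 replicate 1 was 9.52 on the log2 scale, likewise apart below its group, and both are Mbp-low libraries. The relative depth on the log2 scale was −1.52 in 14-0-0 replicate 1, a middle library, and −4.78 in 14-7-0 replicate 4, an Mbp-high library, each below the rest of its group. These 4 came from 35 groups of values tested, of which 1.75 would be set apart by chance.

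Sedentary replicate 6, left out of the main comparisons, had 4386 FPKM of Mbp, above all 69 others, and a mature oligodendrocyte score of 1.22 (mean log2 deviation of the list). In it 28 of the 32 mature oligodendrocyte genes were above all other libraries. Dentate gyrus granule cell genes had a median deviation of −4.57, with 6 of 7 below all other libraries, and CA1 genes one of −2.09. Striatum genes had a median deviation of 2.45, with 6 of 6 above all others, and ependyma genes one of 2.49.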

How the results depend on the processing

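The 129 rising genes became 47 with quantile normalization, 35 with study group as a covariate, 24 in harvest cohort 1 and 10 in cohort 2, and leaving out each library gave 81 to 144. The lowest counts were without 0-0-2 replicate 6 (81) and without 14-7-2 replicate 7 (85). Of the mature oligodendrocyte list, 26 rising genes became 4 with quantile normalization, 12 with study group, 9 in cohort 1 and 2 in cohort 2, and 22 to 28 leaving out each library. The 1 falling gene became 2 with no filter or median ratio scaling, 7 with quantile normalization, 8 with harvest cohort as a covariate, 5 in cohort 1, 0 in cohort 2, 3 with the GC score, 0 without libraries at or above 1000 FPKM of Ttr, and 0 to 3 leaving out each library. The cause of these changes was not tested, and the fits within a cohort also had fewer libraries. With the replicate number as a block, 165 genes rose, 25 of them in the mature list, and 15 fell, and the block changed no call for Mbp in a group; same-numbered libraries had a median correlation of 0.0811 (lowest −0.410) against −0.0210 for other numbers of the same cohort, and for 15 of 69 libraries the best partner shared the number.

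Between Mbp-high and Mbp-low libraries, the 660 higher genes became 245 with the GC score and 288 without libraries at or above 1000 FPKM of Ttr. The 274 lower genes became 128 with a pseudocount of 1, 564 with no filter, 102 with a minimum mean of 5 FPKM, 126 with the GC score and 170 without the Ttr libraries. Leaving out each library gave 508 to 784 higher and 205 to 316 lower genes. The median of the mature list stayed between 0.62 and 0.92 under 14 settings. Slopes of 48 named genes were recomputed under 13 or 14 settings each, 666 values in all. None changed direction while called, 97 lost the call and 15 gained it, and Ttyh2, Mag, Unc5b and Pacs2 kept it in all 14 of theirs. Mbp against sedentary passed in no group under 9 alternatives. The fit over the middle libraries could not be run without 14-7-0 replicate 4, which is not among them. The depth behind each FPKM value is unknown, which limits genes of few fragments.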
